A study of Mus musculus with 11 samples.

Results

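The MHC class I pathway was followed through 10 genes, from the 2 classical heavy chains *H2-K1* and *H2-D1* and their light chain *B2m* to the peptide transporter, the immunoproteasome and the transactivator *Nlrc5*. These were listed by name and matched to Ensembl IDs. They are 10 of the 55536 genes in the deposited tables, and all 10 were among the 20307 genes that passed the filter on low counts. They were read in 11 RNA-seq libraries from dorsal skin of male CD4Cre R26-tdT mice on C57Bl6/N, aged 29 weeks (replicate 1 of each group) or 32 weeks (replicates 2 and 3), each library from the cells of 2 mice. Epidermal cells were released with thermolysin and sorted for CD49f and CD34 into SCA-1neg cells, 3 libraries tdT+ and 3 tdTneg, and SCA-1+ cells, 3 libraries tdT+ and 2 tdTneg. All mice of all groups carried CD4Cre and the R26-tdT reporter, so no library comes from a mouse without Cre. In this model tdT marks every cell in which the *Cd4* promoter was ever active, T cells included.

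MHC class I molecules carry peptides from a cell's own proteins to its surface, where CD8+ T cells read them. Proteins are cut by the proteasome, whose 3 catalytic subunits can be exchanged for the immunoproteasome subunits encoded by *Psmb8*, *Psmb9* and *Psmb10*. The peptides are pumped into the endoplasmic reticulum by the transporter of *Tap1* and *Tap2* and handed by tapasin (*Tapbp*) to a heavy chain paired with beta-2 microglobulin (*B2m*). NLRC5 is known as the transactivator of these genes. It has no DNA-binding domain of its own and acts through factors on the S, X and Y boxes of their promoters, and interferon gamma induces most of the pathway. The bulge of the hair follicle, the niche of CD34+ stem cells, is known as a site of immune privilege, of which low MHC class I is a part. The comparison of SCA-1neg CD34+ cells, the gate of the bulge, with SCA-1+ cells of the same skin bears on that description.

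The promoters of 4 class I genes are shown because the pathway is known for the boxes they share. They are RefSeq windows on GRCm38.p6, from 250 bases before to 50 bases after the first transcribed base, 5′ to 3′ along the gene. Capitals mark 4 motifs searched on both strands, of which none overlapped another. They are the core of the X2 box (TGACG), the Y box (CCAAT), an interferon response motif (GAANNGAAA) and a kappaB motif (GGGNNTTCC). *H2-K1* lies at chr17:34000298-34000597 on the minus strand, *H2-D1* at chr17:35262844-35263143 on the plus strand, *B2m* at chr2:122147437-122147736 on the plus strand and *Tap1* at chr17:34187306-34187605 on the plus strand.
H2-K1: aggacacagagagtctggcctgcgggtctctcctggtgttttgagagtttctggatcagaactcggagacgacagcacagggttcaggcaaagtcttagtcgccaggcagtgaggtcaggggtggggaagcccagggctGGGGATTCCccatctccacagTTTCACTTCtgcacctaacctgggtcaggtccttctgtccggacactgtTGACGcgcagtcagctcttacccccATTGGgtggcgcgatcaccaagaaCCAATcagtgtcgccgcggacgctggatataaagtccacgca
H2-D1: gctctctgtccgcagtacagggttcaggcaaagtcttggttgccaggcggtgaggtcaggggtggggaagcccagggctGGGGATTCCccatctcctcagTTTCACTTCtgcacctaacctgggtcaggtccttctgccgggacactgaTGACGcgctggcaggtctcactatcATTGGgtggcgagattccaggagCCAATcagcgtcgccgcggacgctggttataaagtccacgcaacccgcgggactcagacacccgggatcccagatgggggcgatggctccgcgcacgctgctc
B2m: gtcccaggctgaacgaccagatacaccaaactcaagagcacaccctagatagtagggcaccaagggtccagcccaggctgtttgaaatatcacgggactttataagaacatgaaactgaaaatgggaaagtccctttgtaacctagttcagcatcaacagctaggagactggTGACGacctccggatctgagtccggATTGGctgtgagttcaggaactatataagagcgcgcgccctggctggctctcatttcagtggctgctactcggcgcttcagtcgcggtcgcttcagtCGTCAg
Tap1: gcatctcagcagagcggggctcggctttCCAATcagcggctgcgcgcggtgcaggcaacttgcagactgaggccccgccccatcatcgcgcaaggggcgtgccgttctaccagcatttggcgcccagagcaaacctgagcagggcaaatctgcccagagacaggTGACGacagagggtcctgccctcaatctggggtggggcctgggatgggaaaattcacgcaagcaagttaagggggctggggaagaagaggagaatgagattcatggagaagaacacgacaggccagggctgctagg

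Windows were found for 8 of the 10 genes, all but *Tap2* and *Nlrc5*. The X2 core and the Y box occurred together in 5 of these 8 (*H2-K1*, *H2-D1*, *B2m*, *Tap1* and *Psmb9*), against 7.73% of 32851 windows of the same length over all RefSeq genes. All 4 motifs were in the windows of *H2-K1* and *H2-D1*, and in 0.0517% of all windows. In both heavy chains they stood in the same order, with the kappaB motif farthest from the start, then the interferon response motif, the X2 core and a pair of Y boxes, the first of which reads on the reverse strand. In *B2m*, the X2 core began 78 bases before the start and a Y box on the reverse strand began 53 bases before it. *Tap1* and *Psmb9* are transcribed away from each other, and their windows share 275 bases (chromosome 17, 34187306 to 34187580), so that both hold the same X2 core and the same Y box. A match is a description of the letters in these windows, which were not assayed for binding.

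On GRCm38 (Ensembl release 96), 7 of the genes lie within the MHC on chromosome 17: *Tapbp* (33915899 to 33929292), *H2-K1* (33996017 to 34000347), *Psmb9* (34181987 to 34187764), *Tap1* (34187553 to 34197225), *Psmb8* (34197721 to 34201454), *Tap2* (34203527 to 34216321) and *H2-D1* (35262730 to 35267499). *B2m* lies on chromosome 2 (122147686 to 122153083), and *Nlrc5* (94434356 to 94527272) and *Psmb10* (105935735 to 105938444) on chromosome 8. The values are counts over the exons of each whole gene. *Tap1* and *Psmb9* overlap by 212 bases on opposite strands, the library kit does not mark strand, and the strand setting of the counting is not given in the sources used here, so reads in the overlap cannot be told apart. *Tapbp* and *Zbtb22* overlap by 3422 bases on the same strand, introns included, with 46983 and 15010 counts over all libraries. Genes that overlap *B2m*, *Tap2*, *Psmb8*, *Psmb10* or *Nlrc5* held at most 828 counts each. Of the stretches of 50 bases in the principal transcript, 8.79% in *H2-K1* and 14.3% in *H2-D1* occur exactly in another gene as well, the other class I heavy chains among them. The levels of these 2 genes are therefore uncertain, as are those of *Tap2* (12.6%) and *Psmb9* (12.5%), and *Tapbp* had the largest shared part of the 10. How far shared stretches changed the counts was not measured. None was shared in *B2m*, *Psmb10* and *Nlrc5*.

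The total on genes ran from 17409131 to 46542177 counts per library. At this depth the members had from 386 (*Psmb10*) to 81072 (*H2-K1*) counts in a library. The SCA-1 gate was borne out by *Ly6a*, which encodes SCA-1, at 153 to 294 CPM, counts per library scaled to a common total, in the SCA-1+ and 2.46 to 59.2 CPM in the SCA-1neg libraries. The CD34 label was not borne out in the tdT+ SCA-1+ libraries, where *Cd34* was at 22.3 to 35.7 CPM, against 468 to 1130 CPM in the SCA-1neg libraries. In the tdTneg SCA-1+ libraries *Cd34* was at 320 and 383 CPM, and there *Pecam1*, a gene of endothelial cells, which also make CD34, was at 688 and 728 CPM. *Pecam1* was at 1.05 to 32.9 CPM in 8 of the other 9 libraries and at 175 CPM in tdT+ SCA-1neg replicate 2. This last library stood apart in another way. A row of the tables that is no Ensembl gene held 133 to 307 CPM in the other 5 tdT+ libraries, 2.54 to 4.89 in the tdTneg libraries and 2.05 in the library labelled tdT+ SCA-1neg replicate 2. Values without it are given with the counts of the 10 genes and with the results below whose call changed without it.

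Class I molecules were among the most abundant transcripts of both populations. Per kilobase of exon, *B2m* stood at percentile 99.83 or above of the genes tested in each library, *H2-K1* at 99.63 or above and *H2-D1* at 99.56 or above. In normalized CPM per kilobase of exon, the mean level over the 11 libraries was 1737 ± 538 (SD, n = 11) for *B2m*, 521 ± 122 for *H2-K1* and 441 ± 112 for *H2-D1*. *H2-K1* was the higher heavy chain in each library, by a ratio of 1.05 to 1.29. A step below came *Tapbp* and *Tap1*, whose order was not the same in all groups. In tdTneg SCA-1neg cells *Tapbp* was at 35.3 ± 5.10 (SD, n = 3) and *Tap1* at 25.4 ± 5.64, and in tdT+ SCA-1+ cells *Tapbp* was at 41.8 ± 5.99 and *Tap1* at 56.8 ± 11.7. The ratio of *Tap1* to *Tapbp* was 0.650 to 0.796 in the former and 1.29 to 1.47 in the latter libraries. *Nlrc5* was likewise at 0.503 to 0.617 times *Tap2* in tdTneg SCA-1neg and at 1.51 to 1.79 times *Tap2* in tdT+ SCA-1+ cells. Over the 11 libraries, *Tap2* at 22.3 ± 5.43, *Nlrc5* at 22.3 ± 11.4, *Psmb8* at 18.8 ± 8.09, *Psmb9* at 15.9 ± 6.37 and *Psmb10* at 14.7 ± 4.14 overlapped with each other. Levels between genes depend on the length used, since the exons of all transcripts of *Psmb9* add up to 3660 bases and its principal transcript has 1352. Per kilobase of the principal transcript, an alternative added after seeing the data, *Tap1* was at 73.2 ± 26.9 and *Tapbp* at 51.7 ± 8.39 over the 11 libraries, with ratios of 0.962 to 1.18 in tdTneg SCA-1neg and 1.91 to 2.18 in tdT+ SCA-1+ cells, and *H2-K1* was 1.55 to 1.90 times *H2-D1*.

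The 10 genes were all higher in SCA-1+ than in SCA-1neg cells, by a median log2 fold change of 0.63 as the mean over tdT status, while the median of all 20307 genes was −0.09. Of them, 7 had an adjusted p under 0.05, which 19.3% of all genes reached in either direction, and 9 had an unadjusted p under 0.05 (34.4% of all genes). Only *Nlrc5* was called, which asks for an absolute log2 fold change over 1 as well (11.6% of all genes, 4.77% in the higher direction). The heavy chains, the light chain, *Tap1*, *Psmb8*, *Psmb9* and *Nlrc5* had the smaller p-values, and *Tap2*, *Tapbp* and *Psmb10* did not reach an adjusted p of 0.05. Adjusted p-values are from edgeR's quasi-likelihood test over all genes. Libraries of the populations did not overlap for 4 of the 10 genes, which held for 10.8% of all genes. Without tdT+ SCA-1neg replicate 2, 7 genes again had an adjusted p under 0.05 and *Nlrc5* had a log2 fold change of 1.20. The number was 5 without tdTneg SCA-1+ replicate 1, where *H2-K1* (adjusted p = 0.103) and *B2m* (0.107) were lost, and 6 without tdTneg SCA-1+ replicate 2, where *H2-K1* was lost (0.0585). It was 7 or 8 without any of the other libraries. In pools sorted in bulk, more cells that carry a transcript and more transcript per cell cannot be told apart.

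**Figure D1:**
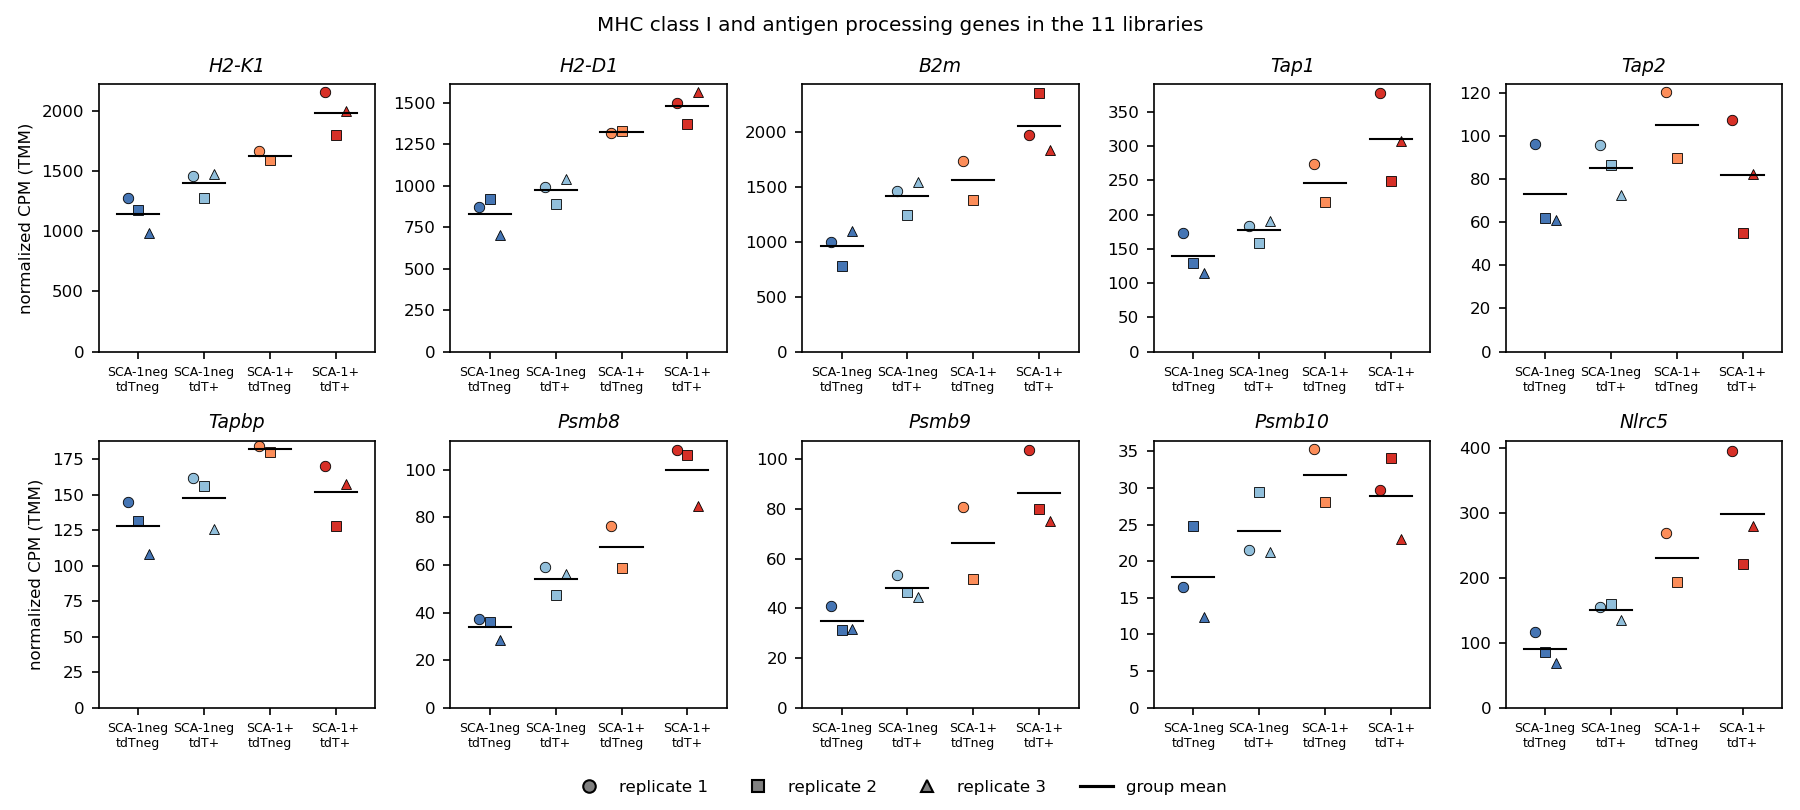
Normalized CPM (linear axes from 0) of the 10 genes in each library, grouped by sort gate, with the symbol giving the replicate and the line the group mean. *H2-K1*, *H2-D1*, *Tap1* and *Nlrc5* were higher in each of the 5 SCA-1+ libraries than in any of the 6 SCA-1neg libraries, whereas *Tap2* and *Tapbp* overlapped between the populations.

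*H2-K1*, a classical heavy chain, was at 1457, 1274 and 1476 CPM in the tdT+ and at 1272, 1172 and 986 CPM in the tdTneg SCA-1neg libraries. In SCA-1+ cells it was at 2160, 1798 and 2001 CPM (tdT+) and at 1667 and 1588 CPM (tdTneg). Each SCA-1+ library was thus above each SCA-1neg library, with a log2 fold change of 0.51 ± 0.12 (SE, adjusted p = 0.0201).

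*H2-D1*, the other classical heavy chain of this strain, was at 993, 890 and 1041 CPM (tdT+) and 874, 921 and 702 CPM (tdTneg) in SCA-1neg cells. In SCA-1+ cells it was at 1502, 1372 and 1568 CPM (tdT+) and 1317 and 1333 CPM (tdTneg). The populations did not overlap, and the log2 fold change was 0.64 ± 0.12 (SE, adjusted p = 0.00547).

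*B2m*, the light chain that all class I heavy chains need at the surface, was at 1461, 1249 and 1544 CPM (tdT+) and 998, 780 and 1102 CPM (tdTneg) in SCA-1neg cells. In SCA-1+ cells it was at 1975, 2359 and 1839 CPM (tdT+) and 1739 and 1386 CPM (tdTneg). Here the lower tdTneg SCA-1+ library lay within the range of the tdT+ SCA-1neg libraries. The log2 fold change was 0.62 ± 0.15 (SE, adjusted p = 0.0170). Per kilobase, *B2m* was 1.20 to 2.40 times the sum of the 2 heavy chains over the 11 libraries, with ranges that overlapped between all 4 groups, and 0.780 to 1.56 times by principal transcript length.

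*Tap1*, the first subunit of the peptide transporter, was at 183, 159 and 190 CPM (tdT+) and 174, 129 and 114 CPM (tdTneg) in SCA-1neg cells. In SCA-1+ cells it was at 377, 249 and 307 CPM (tdT+) and 274 and 219 CPM (tdTneg). The populations did not overlap, and the log2 fold change was 0.82 ± 0.15 (SE, adjusted p = 0.00479). Its partner *Tap2* was at 95.8, 86.4 and 72.6 CPM (tdT+) and 96.3, 61.9 and 60.8 CPM (tdTneg) in SCA-1neg cells, and at 108, 55.2 and 82.5 CPM (tdT+) and 121 and 89.7 CPM (tdTneg) in SCA-1+ cells. The lowest and the highest *Tap2* level of the series were both found in SCA-1+ cells, and the log2 fold change of 0.24 ± 0.20 (SE) had an adjusted p of 0.433.

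The ratio of *Tap1* to *Tap2* per kilobase of exon needs no scaling between libraries. It was 1.25 to 1.44 in tdTneg and 1.27 to 1.81 in tdT+ SCA-1neg cells, 1.57 and 1.68 in tdTneg SCA-1+ cells and 2.42 to 3.12 in tdT+ SCA-1+ cells. The 3 tdT+ SCA-1+ libraries were above the other 8. By principal transcript length the ratio was 4.08 to 5.27 in these 3 and 2.10 to 3.05 in the other 8. This ratio was looked at after the values of both genes were known and was not tested.

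*Tapbp*, which encodes the tapasin of the loading complex, was at 162, 156 and 126 CPM (tdT+) and 145, 132 and 108 CPM (tdTneg) in SCA-1neg cells and at 170, 128 and 158 CPM (tdT+) and 184 and 180 CPM (tdTneg) in SCA-1+ cells. The populations overlapped, with a log2 fold change of 0.27 ± 0.12 (SE, adjusted p = 0.136). *Tapbp* and *Tap2* were close to each other in their pattern over the 11 libraries, with a root mean square difference of 0.189 between their centred log2 CPM. *Tap2* was farthest from *Psmb8* (0.606), and the closest pair of all was *H2-K1* with *H2-D1* (0.0984).

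Among the immunoproteasome subunits, *Psmb8* was at 59.1, 47.4 and 56.4 CPM (tdT+) and 37.3, 36.0 and 28.4 CPM (tdTneg) in SCA-1neg cells. In SCA-1+ cells it was at 108, 106 and 84.9 CPM (tdT+) and 76.4 and 58.7 CPM (tdTneg). The lower tdTneg SCA-1+ library fell just below the highest SCA-1neg library, and the log2 fold change was 0.94 ± 0.13 (SE, adjusted p = 0.000972), the smallest p of the 10 genes. *Psmb9* was at 53.5, 46.4 and 44.6 CPM (tdT+) and 41.0, 31.4 and 31.7 CPM (tdTneg) in SCA-1neg cells, and at 104, 79.7 and 75.1 CPM (tdT+) and 80.7 and 51.6 CPM (tdTneg) in SCA-1+ cells. It too overlapped through 1 tdTneg SCA-1+ library, with a log2 fold change of 0.89 ± 0.15 (SE, adjusted p = 0.00315). *Psmb10* was at 21.5, 29.4 and 21.3 CPM (tdT+) and 16.5, 24.7 and 12.4 CPM (tdTneg) in SCA-1neg cells, and at 29.7, 34.1 and 23.02 CPM (tdT+) and 35.3 and 28.1 CPM (tdTneg) in SCA-1+ cells. Its log2 fold change of 0.55 ± 0.20 (SE) had an adjusted p of 0.0864.

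*Nlrc5* showed the largest fold change of the 10 genes. It was at 155, 160 and 135 CPM (tdT+) and 116, 85.7 and 68.7 CPM (tdTneg) in SCA-1neg cells. In SCA-1+ cells it was at 395, 222 and 280 CPM (tdT+) and 269 and 193 CPM (tdTneg). Each SCA-1+ library was above each SCA-1neg library, and *Nlrc5* rose 2.26-fold (log2 fold change 1.18 ± 0.19, SE, adjusted p = 0.00218).

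Each population difference was also read within each tdT status. Within tdT+ cells, 9 of the 10 genes were higher in SCA-1+ cells (*Tap2* at a log2 fold change of −0.05) and none was called (8.45% of all genes were). At an adjusted p under 0.05 without the fold threshold there were 5, *H2-D1*, *Tap1*, *Psmb8*, *Psmb9* and *Nlrc5* (12.3% of all genes), and at an unadjusted p under 0.05 there were 7 (30.5%). DESeq2 called none as well (15.5% of all genes were), with 7 at an adjusted p under 0.05. *Nlrc5* had a log2 fold change of 0.996 ± 0.25 (SE, adjusted p = 0.0291), just under the fold threshold. Without the library labelled tdT+ SCA-1neg replicate 2 only *Psmb8* kept an adjusted p under 0.05 (log2 fold change 0.79, adjusted p = 0.0309), and *Nlrc5* had a log2 fold change of 1.04 (adjusted p = 0.0604). Omission of tdT+ SCA-1+ replicate 1 also left 1 gene, and omission of any of the other 4 tdT+ libraries left 2 to 4.

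Within tdTneg cells all 10 genes were higher in SCA-1+ cells, and *Nlrc5* was called with a log2 fold change of 1.36 ± 0.27 (SE, adjusted p = 0.0217; 4.74% of all genes were called). *Psmb8* (0.99 ± 0.18, adjusted p = 0.0161) and *Psmb9* (0.93 ± 0.22, adjusted p = 0.0386) were the others at an adjusted p under 0.05, which 5.77% of all genes reached, and 9 genes had an unadjusted p under 0.05 (21.1%). On omission of each library the log2 fold change ran from 1.09 to 1.63 (*Nlrc5*), 0.78 to 1.22 (*Psmb8*) and 0.56 to 1.27 (*Psmb9*). The number at an adjusted p under 0.05 moved with the method, to 9 with DESeq2, 5 with RLE size factors, 6 with at least 10 counts in every library and 2 with only the groups compared. It was also 2 without tdT+ SCA-1neg replicate 2 or tdT+ SCA-1+ replicate 3 and 5 without tdT+ SCA-1+ replicate 2, libraries outside this comparison. Among all genes the share called at both thresholds moved with the method too, from 4.74% to 10.1% with DESeq2. That share was 4.83% with RLE size factors, 9.24% with at least 10 counts in every library and 7.61% with only the groups compared. The share of all genes at an adjusted p alone was not counted under these methods. This comparison rests on 3 against 2 libraries, and no gene kept an adjusted p under 0.05 without tdTneg SCA-1neg replicate 3 or without tdTneg SCA-1+ replicate 1. Libraries did not overlap for 7 of the 10 genes within tdT+ cells (30.4% of all genes) and for 9 within tdTneg cells (46.3%).

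**Figure D2:**
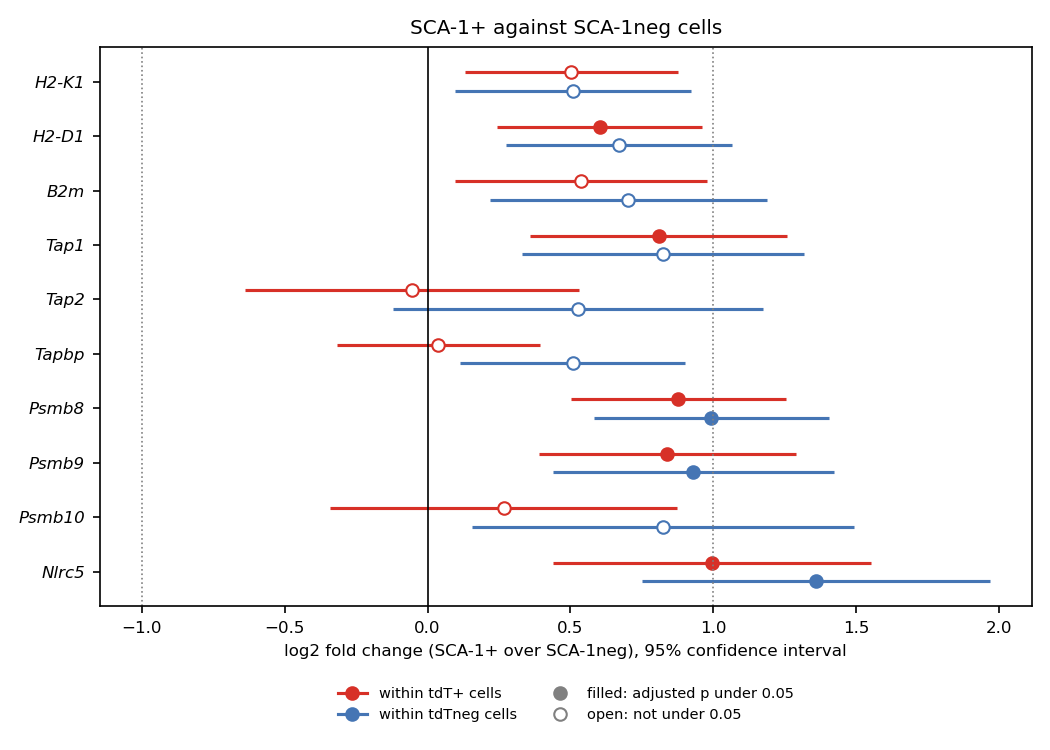
Log2 fold change of SCA-1+ over SCA-1neg cells with its 95% confidence interval for each gene, within tdT+ (red) and within tdTneg cells (blue). Filled points have an adjusted p under 0.05 and dotted lines mark the fold threshold of 1, which only *Nlrc5* within tdTneg cells passed with an adjusted p under 0.05.

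Age went with the replicate number, so the comparison was repeated within each age from the mean CPM, with no test because groups then hold 1 or 2 libraries. At 29 weeks, all 10 genes were higher in SCA-1+ cells within tdT+ (median log2 ratio 0.58) and within tdTneg cells (0.73). At 32 weeks, 9 of 10 were higher within tdT+ cells (0.60), with *Tap2* at a log2 ratio of −0.21, and all 10 within tdTneg cells (0.65).

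The immunoproteasome subunits replace constitutive subunits of the same catalytic site, *Psmb8* that of *Psmb5*, *Psmb9* that of *Psmb6* and *Psmb10* that of *Psmb7*. Within each library the share of the immunoproteasome gene in the pair was taken from counts per kilobase of exon. For *Psmb9* it was 24.2% to 41.1% in the 5 SCA-1+ and 11.5% to 21.6% in the 6 SCA-1neg libraries, with means of 30.5% ± 7.24 (SD, n = 5) and 17.5% ± 4.30 (SD, n = 6). These did not overlap (two-sided exact permutation test, p = 0.00433, the smallest that 462 arrangements can give, adjusted p = 0.013 over the 3 pairs). For *Psmb8* it was 47.9% ± 6.17 (SD, n = 5) in SCA-1+ and 35.5% ± 7.83 (SD, n = 6) in SCA-1neg cells (exact permutation test, p = 0.026, adjusted p = 0.039), and 41.9% to 55.3% overlapped with 24.6% to 44.0%. With arrangements only within the replicate number, the adjusted p for *Psmb8* was 0.0833 by the same exact test. On omission of each library the adjusted p for *Psmb8* ran from 0.0357 to 0.0857 by the exact test over all arrangements. For *Psmb10* the shares of 46.7% ± 6.52 (SD, n = 5) and 39.8% ± 9.53 (SD, n = 6) did not pass the exact permutation test (p = 0.19). These means join both tdT states. For *Psmb8* the mean share in SCA-1+ and SCA-1neg cells was 47.3% and 41.3% within tdT+ cells, whose libraries overlapped, and 48.8% and 29.7% within tdTneg cells. For *Psmb9* it was 31.3% and 19.8% within tdT+ and 29.4% and 15.2% within tdTneg cells, and for *Psmb10* 43.1% and 43.5% within tdT+ and 52.2% and 36.2% within tdTneg cells. The shares were not tested within each tdT status. Without the library labelled tdT+ SCA-1neg replicate 2, the differences between the populations were 13.7 (*Psmb9*), 14.1 (*Psmb8*) and 9.44 percentage points (*Psmb10*). The level of the shares depends on the length used. By the length of the principal transcript, an alternative added after seeing the data, the mean shares in SCA-1+ and SCA-1neg cells were 33.6% and 19.7% for *Psmb9*, 65.5% and 52.9% for *Psmb8*, and 28.1% and 22.999% for *Psmb10*, with the differences on the same side of the threshold.

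None of the constitutive partners had an adjusted p under 0.05 between the populations. *Psmb5* had a log2 fold change of 0.16 ± 0.20, *Psmb6* of −0.18 ± 0.16 and *Psmb7* of 0.08 ± 0.14 (SE, adjusted p = 0.619, 0.453 and 0.754). Of the 14 genes of the constitutive core particle none was called, none had an unadjusted p under 0.05, and their median log2 fold change was 0.12. This mean over tdT joins values of opposite sign. Within tdT+ cells 13 of the 14 were higher in SCA-1+ cells, with a median of 0.36 and 3 at an unadjusted p under 0.05, and within tdTneg cells 13 were lower, with a median of −0.15 and none at an unadjusted p under 0.05. The difference in the effect of tdT was positive for all 14, with a median of 0.47, 2 at an unadjusted p under 0.05 and none at an adjusted p under 0.05. *Psma6*, the most abundant of them per kilobase, was at 0.15 ± 0.12 (SE, adjusted p = 0.414), and *Psmb1*, with the most CPM, at 0.11 ± 0.19 (adjusted p = 0.726).

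**Figure D3:**
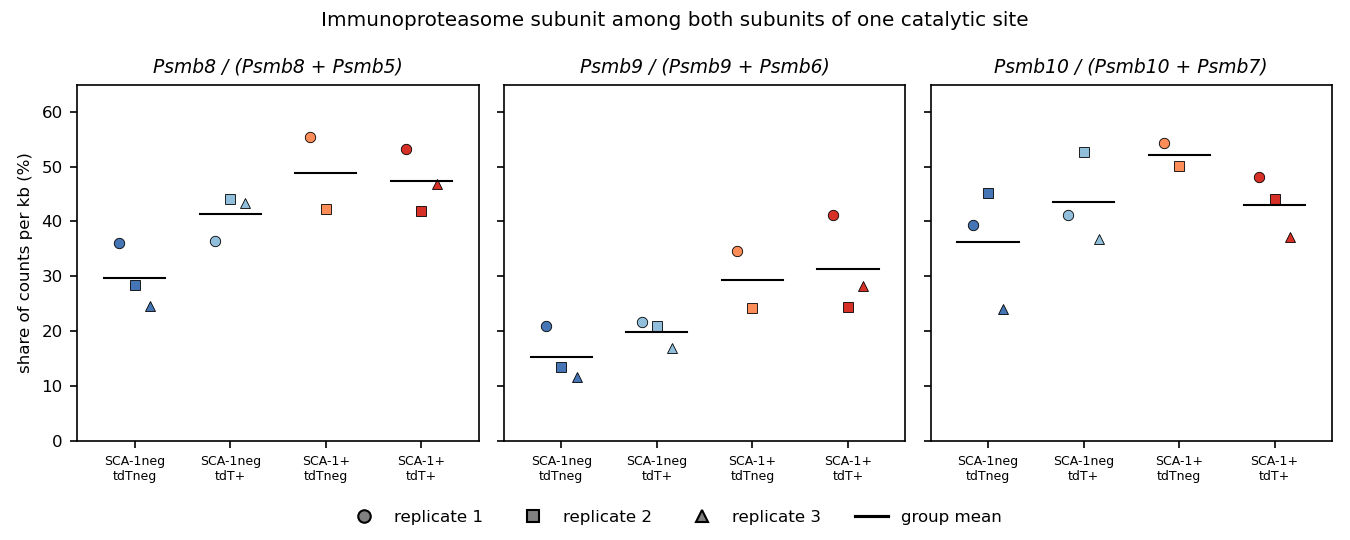
Share (%) of *Psmb8*, *Psmb9* and *Psmb10* in the sum with the constitutive subunit of the same site, in each library by sort gate, from counts per kilobase of exon (symbols give the replicate, lines the group mean). The *Psmb9* share was at least 24.2% in the SCA-1+ and at most 21.6% in the SCA-1neg libraries, and the *Psmb10* share overlapped between them.

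The tdT+ and tdTneg cells of one gate were compared next, in libraries that the population comparisons also used. In SCA-1neg cells all 10 genes were higher in tdT+ cells, with a median log2 fold change of 0.39 (−0.03 over all genes), but none was called or had an adjusted p under 0.05. The median was 0.23 without tdTneg SCA-1neg replicate 3. Only 2 of all genes were called (0.00985%), and DESeq2 called none of the 10. At an unadjusted p under 0.05 there were 4 genes (8.42% of all genes): *Psmb8* (log2 fold change 0.68 ± 0.17, adjusted p = 0.258), *Nlrc5* (0.73 ± 0.25, adjusted p = 0.465), *B2m* (0.56 ± 0.20, adjusted p = 0.479) and *Psmb9* (0.47 ± 0.20, adjusted p = 0.577). These 4 and *H2-K1* did not overlap between the 3 tdT+ and the 3 tdTneg libraries, a separation that 16% of all genes showed. With DESeq2 the adjusted p was 0.0069 for *Psmb8* and 0.0129 for *B2m*, with log2 fold changes of 0.76 and 0.65 that stayed under the fold threshold. Without the library labelled tdT+ replicate 2 the edgeR values were 0.77 for *Psmb8*, 0.68 for *Nlrc5*, 0.65 for *B2m* and 0.50 for *Psmb9*, none with an adjusted p under 0.05.

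In SCA-1+ cells 7 of the 10 genes were higher in tdT+ cells, and none was called (2.31% of all genes) or had an adjusted p under 0.05 (2.55%), with DESeq2 again calling none. *Psmb8* (0.56 ± 0.19, adjusted p = 0.187) was the only gene at an unadjusted p under 0.05 (14.6% of all genes). Its log2 fold change ran from 0.34 to 0.76 on omission of each library. *Tap2* (−0.36 ± 0.29), *Tapbp* (−0.26 ± 0.18) and *Psmb10* (−0.13 ± 0.30) had negative values, all with an adjusted p above 0.5. Both tdTneg libraries were above the 3 tdT+ libraries for *Tapbp* and below them for *H2-K1*, *H2-D1*, *B2m* and *Psmb8*, and 33% of all genes separated in 1 direction or the other.

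**Figure D4:**
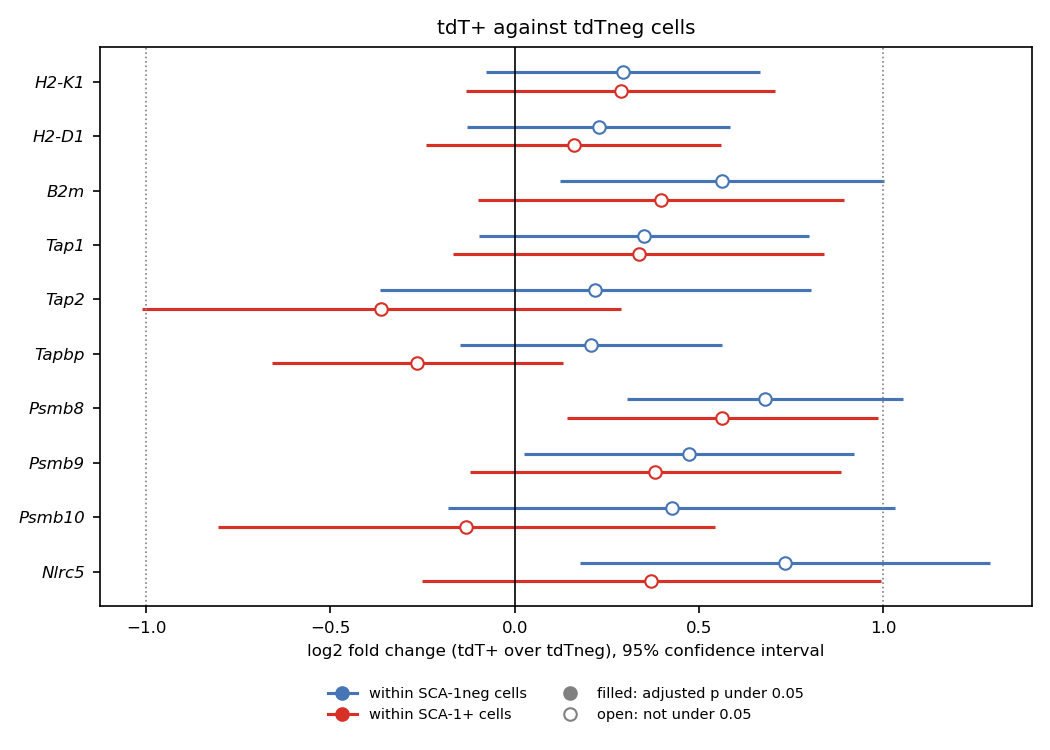
Log2 fold change of tdT+ over tdTneg cells with its 95% confidence interval for each gene, within SCA-1neg (blue) and within SCA-1+ cells (red). All points are open, since no adjusted p was under 0.05, and the intervals of *Psmb8* lie above 0 in both populations.

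Whether the effect of tdT was the same in SCA-1+ and SCA-1neg cells was tested as an interaction. None of the 10 genes was called (0.389% of all genes) or had an unadjusted p under 0.05 (12.4% of all genes), and DESeq2 called none. The values nearest to the threshold were those of *Tapbp* (−0.47 ± 0.24, adjusted p = 0.462) and *Tap2* (−0.58 ± 0.39, adjusted p = 0.60). The 95% confidence intervals of these 10 differences had half-widths of 0.531 (*Tapbp*) to 0.905 (*Psmb10*) on the log2 scale. For each gene an estimate under its own half-width leaves 0 within the interval. The intervals are not adjusted for the number of genes. Without the library labelled tdT+ SCA-1neg replicate 2 the median of the 10 differences was −0.23 in place of −0.14, and again none had an unadjusted p under 0.05. It moved more without tdTneg SCA-1+ replicate 1, to −0.02 with 5 of 10 values positive, and without tdTneg SCA-1+ replicate 2, to −0.38.

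Signals of other cells moved with the same gates. The summed level of 9 leukocyte markers was 151 to 760 CPM in the SCA-1+ and 9.39 to 209 CPM in the SCA-1neg libraries, and that of 10 T cell markers 157 to 1140 CPM against 32.5 to 85.9 CPM. *Ptprc*, carried by all leukocytes, was at 40.4 to 229 CPM against 1.61 to 52.0 CPM, and *Cd3e*, of T cells, at 9.78 to 117 CPM against 0.317 to 7.87 CPM. No marker of either list was at 0 throughout a group. Of these lists, 7 of 9 leukocyte and 10 of 10 T cell markers were called higher in SCA-1+ cells. The part of these cells in the class I values was not tested. Within a group, the library with the highest leukocyte sum held the highest level of 2 of the 10 genes in tdT+ SCA-1neg (the lowest of 5), of 2 in tdTneg SCA-1neg (the lowest of 2), of 2 in tdT+ SCA-1+ (the lowest of 6) and of 1 in tdTneg SCA-1+ cells (the lowest of 9). The library with the lowest sum held the lowest level of 5 genes in tdT+ SCA-1neg (the highest of 4), of 8 in tdTneg SCA-1neg (the highest of 1), of 0 in tdT+ SCA-1+ (the highest of 7) and of 1 in tdTneg SCA-1+ cells (the highest of 9). In both SCA-1+ groups the library with the lowest sum was replicate 1, of the younger age, so the sum and the age cannot be told apart there. The tdTneg SCA-1+ group has 2 libraries, so its counts mirror each other. These ranks were not counted over all genes and were not tested.

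Markers of endothelial cells (7 genes) summed to 1874 and 2004 CPM in the tdTneg SCA-1+ libraries and to 5.51 to 495 CPM in the other 9. It was 37.5 to 71.1 CPM in the tdT+ SCA-1+ libraries. None of the 7 was called between the populations, and without the library labelled tdT+ SCA-1neg replicate 2, 5 were called higher in SCA-1+ cells. Of the 10 class I genes, both tdTneg SCA-1+ libraries were above the tdT+ SCA-1+ libraries for *Tapbp* and below them for *H2-K1*, *H2-D1*, *B2m* and *Psmb8*, and for the other 5 the libraries overlapped. The part of endothelial cells in the class I values was not tested. Langerhans cell markers (5 genes) summed to 39.5 to 199 CPM in SCA-1+ and 1.93 to 175 CPM in SCA-1neg cells, and *Cd207* was at 5.57 to 21.4 CPM against 0.181 to 9.05 CPM. Their part was not tested either. Between tdT+ and tdTneg SCA-1neg cells, the leukocyte sum was 73.3 to 209 CPM against 9.39 to 67.3 CPM, and its part in the differences of *B2m*, *Psmb8*, *Psmb9* and *Nlrc5* was not tested. Keratinocyte markers moved too. The sum of 6 markers of interfollicular epidermis was 3556 to 10883 CPM in SCA-1+ and 535 to 4311 CPM in SCA-1neg cells, and all 6 bulge markers were called lower in SCA-1+ cells.

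**Figure D5:**
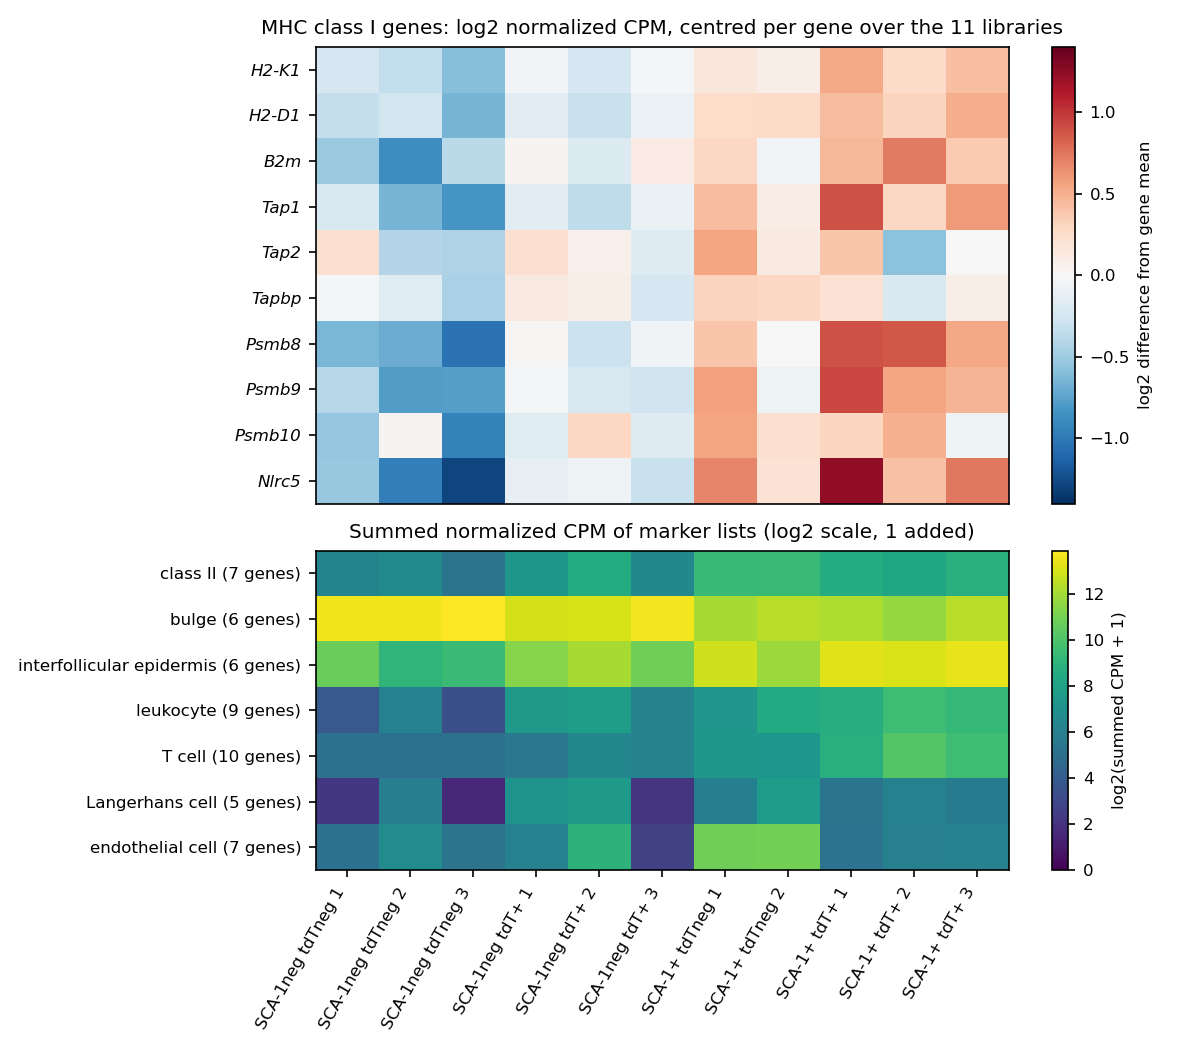
Top, log2 normalized CPM of the 10 genes, centred per gene over the 11 libraries (columns, by sort gate and replicate). Bottom, summed normalized CPM of marker lists in the same libraries on a log2 scale, in which the endothelial sum is highest in the 2 tdTneg SCA-1+ libraries (1874 and 2004 CPM) and the T cell sum in the tdT+ SCA-1+ libraries (435 to 1140 CPM).

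Around the 10 genes, lists of the wider pathway were counted over the same comparison of SCA-1+ with SCA-1neg cells, in which 19.3% of all genes had an adjusted p under 0.05 and 11.6% were called. For lists of this size, shares such as 1 of 6 or 2 of 10 are near that background. Of 15 other class I and class I-like heavy chains, 14 were tested, 10 of them with a positive value and a median of 0.58, and 7 had an adjusted p under 0.05. *H2-M2*, a nonclassical heavy chain, was called higher (2.28 ± 0.62, adjusted p = 0.0307) with 3.58 to 18.6 CPM in SCA-1+ and 0.529 to 9.32 CPM in SCA-1neg cells. *Cd1d1*, which presents lipids to NKT cells, was called lower (−2.76 ± 0.86, adjusted p = 0.0496), with 22.98, 16.7 and 23.2 CPM in 3 SCA-1neg libraries and 0.746 to 2.97 CPM in the other 8. One of these 3 is the library labelled tdT+ SCA-1neg replicate 2, without which the log2 fold change of *Cd1d1* was −2.68 with an adjusted p of 0.0768. The same 3 libraries, tdT+ replicates 1 and 2 and tdTneg replicate 2, held 228, 106 and 169 CPM of *H2-Q10*, another heavy chain of the list, against 0.146 to 1.70 CPM in the other 8. Its log2 fold change had the largest size of the list (−6.62 ± 2.08, adjusted p = 0.0501). Some markers of myeloid cells moved with these 3 libraries among the SCA-1neg libraries. *Csf1r* was at 33.4, 69.3 and 31.7 CPM in them against 0.276 to 1.22 CPM in the other 3, and *Mpeg1* at 92.3, 86.3 and 24.9 CPM against 0.366 to 1.27 CPM. The sum of the 5 Langerhans cell markers, to which both belong, was 131, 175 and 61.1 CPM against 1.93 to 3.72 CPM, and in the SCA-1+ libraries it was 39.5 to 199 CPM. Of that list *Itgax* (4.62, 7.34 and 2.99 CPM against 0 to 0.351) and *Cd86* (0.906, 3.48 and 0.661 against 0.0551 to 0.145) moved likewise at low levels. *Cd207*, which marks Langerhans cells, did not separate them, at 0.181, 9.05 and 0.952 CPM against 0.927 to 1.60 CPM. The part of myeloid cells in the values of *Cd1d1* and *H2-Q10* was not tested. Neither *H2-M2* nor *Cd1d1* was called within tdT+ or within tdTneg cells alone. Of 6 genes for peptide trimming and loading none was called and 1 had an adjusted p under 0.05. The chaperone *Calr*, the most abundant of them on both scales, had a log2 fold change of −0.12 ± 0.12. Of 3 proteasome activator subunits none was called and 2 had an adjusted p under 0.05, *Psme1* (0.35 ± 0.09, adjusted p = 0.0242), the most abundant per kilobase, and *Psme2* (0.49 ± 0.14, adjusted p = 0.033). *Psme3*, with the most CPM, was at 0.08 ± 0.09.

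Of 10 factors of the promoter boxes and of NF-kappaB, none was called, 5 had a positive value and 2 had an adjusted p under 0.05. *Rela*, the most abundant per kilobase, rose by a log2 fold change of 0.50 ± 0.14 (adjusted p = 0.0323), and *Nfkb1*, with the most CPM, was at 0.27 ± 0.09 (adjusted p = 0.0514). Of 13 genes of interferon signalling, 12 had a positive value and 5 an adjusted p under 0.05. *Ifngr1*, which encodes the ligand-binding chain of the interferon gamma receptor, was called (1.61 ± 0.20, adjusted p = 0.000651), with 90.6 to 152 CPM in the SCA-1+ and 27.2 to 70.9 CPM in the SCA-1neg libraries. It was also called within tdT+ (1.34 ± 0.27, adjusted p = 0.0109) and within tdTneg cells (1.88 ± 0.29, adjusted p = 0.00961). Without tdT+ SCA-1neg replicate 2, genes of these lists at an adjusted p under 0.05 fell from 7 to 4 (heavy chains), 2 to 1 (activators), 2 to 1 (promoter factors) and 5 to 3 (interferon signalling, with 10 of 13 values positive).

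MHC class II genes are carried by professional antigen-presenting cells. Of 7 genes, 4 were called higher in SCA-1+ cells: *H2-Aa* (2.21 ± 0.41, SE, adjusted p = 0.00512), *H2-Ab1* (2.29 ± 0.44, adjusted p = 0.00642), *H2-Eb1* (2.49 ± 0.45, adjusted p = 0.00452) and *Cd74* (2.45 ± 0.49, adjusted p = 0.00765). *H2-DMa* was at 0.89 ± 0.28 (adjusted p = 0.0488), *Ciita* at 0.78 ± 0.64 and *H2-DMb1* at −0.15 ± 0.17, the last 2 with an adjusted p above 0.4. *Cd74*, the invariant chain, was at 25.6, 26.2 and 5.61 CPM in tdTneg SCA-1neg cells and at 284 and 327 CPM in tdTneg SCA-1+ cells. Within tdT+ cells none of the 7 was called or had an unadjusted p under 0.05. There *Cd74* was at 148 CPM in the library labelled tdT+ SCA-1neg replicate 2 and at 48.4 and 27.0 CPM in the other tdT+ SCA-1neg libraries, against 94.5 to 164 CPM in the tdT+ SCA-1+ libraries. Without that library *H2-Ab1* was called higher within tdT+ cells (2.05 ± 0.52, adjusted p = 0.0401), and *Cd74* was at 1.89 ± 0.60 (adjusted p = 0.0829).

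Of 8 genes tied to immune privilege 7 were tested and 2 called, in opposite directions. *Cd200*, an inhibitory ligand of bulge cells, was lower in SCA-1+ cells (−1.33 ± 0.24, adjusted p = 0.00443), with 24.9 to 142 CPM against 84.3 to 231 CPM in SCA-1neg cells. Within tdT+ cells *Cd200* was at 24.9 to 34.9 CPM in the SCA-1+ and 116 to 231 CPM in the SCA-1neg libraries (−2.55 ± 0.33, adjusted p = 0.00136). Within tdTneg cells the libraries overlapped, with a log2 fold change of −0.11 ± 0.34 (adjusted p = 0.899), and the difference between these effects had an adjusted p of 0.0598. *Cd274*, which encodes PD-L1, was higher (2.03 ± 0.36, adjusted p = 0.00422), with 12.8 to 23.5 CPM against 2.41 to 11.2 CPM, and was called within tdTneg (2.58 ± 0.54, adjusted p = 0.0245) but not within tdT+ cells (1.48 ± 0.49, adjusted p = 0.0746). Without tdT+ SCA-1neg replicate 2 it was called within tdT+ cells too (2.17 ± 0.45, adjusted p = 0.0182), and *Tgfb2*, a growth factor of the list, was called lower between the populations (−1.55 ± 0.36, adjusted p = 0.0183). With all libraries *Tgfb2* was not called there (−1.32 ± 0.48, adjusted p = 0.0819) but was called lower within tdT+ cells (−2.32 ± 0.65, adjusted p = 0.0443). Of 5 ligands of the NK cell receptor NKG2D 4 were tested, and *H60c*, the one made in skin, was called higher (1.21 ± 0.17, adjusted p = 0.0012), with 25.1 to 63.5 CPM against 12.3 to 19.8 CPM. It was called within tdT+ cells (1.74 ± 0.23, adjusted p = 0.00167), and within tdTneg cells it was at 0.69 ± 0.25 (adjusted p = 0.147).

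The genes with the pattern most like the mean of the 10 over the 11 libraries were found by the root mean square difference of centred log2 CPM. Among genes outside the list these were *Madd* (0.127), *Malt1* (0.130), *Ccdc6* (0.132), *H2-T22* (0.134), a nonclassical heavy chain, and *Stap2* (0.143). Of the 10 themselves *H2-K1* was nearest to their mean (0.121), and *Tap2* (0.369) and *Nlrc5* (0.328) were farthest.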

How the data were processed

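The authors aligned the reads with STAR to mm10 with the Ensembl release 96 annotation and counted them per gene with featureCounts, and the deposited counts are whole numbers without normalization, in 11 libraries. Strand setting and handling of reads with several matches are not given in the sources used here. A row that is no Ensembl gene stayed out of totals and tests (2.05 to 307 CPM). Groups and replicate numbers came from the labels. All 11 libraries were fitted with 1 mean per group in edgeR 4.0.16 (TMM, filterByExpr, quasi-likelihood test, R 4.3.3), with Benjamini-Hochberg adjustment over 20307 genes. A gene was called at an absolute log2 fold change over 1 with an adjusted p under 0.05. DESeq2 1.42.0 was an alternative, and limma 3.58.1 was loaded with edgeR. CPM are scaled by TMM library sizes, except those of that row, which are per total count on genes. Exon lengths, and 50-base stretches shared with other genes, came from Ensembl 96 transcripts, promoters from RefSeq. Permutations and figures were made in Python 3.11.15 (pandas 2.3.3, numpy 2.4.6, scipy 1.17.1, matplotlib 3.10.9). The median half-width of the 95% interval of the 10 genes was 0.33 (log2) for SCA-1+ against SCA-1neg cells. In simulated counts 200 genes were changed by 3 on the log2 scale, and the same fit recovered 74.7% of those that passed its filter in that comparison. The largest log2 fold change of the 10 genes there was 1.18, so this rate does not describe changes of their size.

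The 10 genes and the lists were chosen with earlier results of these data known. Named with values are the 10 genes, *Psmb5*, *Psmb6* and *Psmb7*, each gene of a pathway list called between the populations, the most abundant gene of each pathway list without one, of the cell type lists *Ptprc*, *Cd3e*, *Cd207* and *Pecam1*, and the 5 nearest patterns. *Ly6a* and *Cd34* check the gates. *Tgfb2*, *H2-Q10*, *Psme2*, *H2-DMa*, *H2-DMb1*, *Ciita*, *Csf1r*, *Mpeg1*, *Itgax*, *Cd86*, *Zbtb22* and the leaders per kilobase were named after their values were seen. The study's supplement gives each replicate as isolates from 2 mice. The methods, after naming the sorted populations, give a total of 3 biological replicates, each of material from 2 male mice. Neither says outright whether libraries of different groups with the same number share mice. Alternatives were DESeq2, RLE size factors, other filters, no fold threshold, the replicate block, only the groups compared and omission of each library. Shares and levels by principal transcript length, and the lists without tdT+ SCA-1neg replicate 2, were added after seeing the data.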

Additional observations from a re-analysis of the deposited data

Results flagged for a closer look

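A row of the tables that is no Ensembl gene and enters no comparison stood above its level in the tdTneg libraries (2.54 to 4.89 CPM) in 5 of the 6 tdT+ libraries. It was at 133.3 and 252.4 CPM in tdT+ SCA-1neg replicates 1 and 3, and at 254.3, 223.8 and 307.4 in tdT+ SCA-1+ replicates 1, 2 and 3. The library labelled tdT+ SCA-1neg replicate 2 had 37 counts, or 2.05 CPM. No outlying library was found in the 20 sets of 4 or more libraries that were tested for the 10 genes, where chance would mark about 1 in 20.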

How the results depend on the processing

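The number of the 10 genes called was 1 between the populations, 0 within tdT+ and 1 within tdTneg cells. Without the fold threshold these became 7, 5 and 3. Within tdTneg cells *Psmb8*, alone or with *Psmb9*, crossed a log2 fold change of 1 under some other settings. The count there was 3 with DESeq2 (10.1% of all genes called), RLE size factors (4.83%) and at least 10 counts in every library (9.24%). It was 2 with at least 1 count in any library (3.41%) and with only the groups compared (7.61%). On omission of each library it ranged from 1 to 3 between the populations (3 without tdTneg SCA-1+ replicate 2), 0 to 1 within tdT+ and 0 to 3 within tdTneg cells (0 without tdTneg SCA-1neg replicate 3 or tdTneg SCA-1+ replicate 1). For tdT+ against tdTneg cells, and for the difference in this effect, it was 0 throughout. The replicate block changed no call of the 10 genes at both thresholds, and moved those with an adjusted p under 0.05 from 5 to 4 within tdT+ and from 3 to 4 within tdTneg cells. For 15 pairs of libraries that share a replicate number, deviations from the group means correlated with a median r of 0.083 (7 over 0.1), against −0.023 for 30 other pairs. The difference in *Psmb8* share, 12.4 percentage points, had an adjusted p of 0.0833 with the replicate block and ranged from 10.2 to 14.1 points on omission of each library, with the adjusted p above 0.05 in 7 omissions. Values that changed sign with another method, another filter or the replicate block were close to 0. These were *Tapbp* within tdT+ cells, at −0.00172 (DESeq2), −0.00196 (RLE size factors), −0.022 (at least 1 count) and −0.027 (at least 10 counts), and *H2-K1* in the difference in the effect of tdT, at 0.0058 with the replicate block. On omission of each library *Tapbp* ranged from −0.067 to 0.12 and *Tap2* from −0.30 to 0.14 within tdT+ cells, and *Psmb10* from −0.33 to 0.035 for tdT in SCA-1+ cells. In the difference in the effect of tdT, omissions gave −0.091 to 0.089 for *H2-K1*, −0.15 to 0.041 for *H2-D1*, −0.36 to 0.019 for *B2m*, −0.21 to 0.17 for *Tap1*, −0.32 to 0.10 for *Psmb8* and −0.41 to 0.28 for *Psmb9*. RLE size factors moved the median of all genes by 0.118 (log2) in that difference.

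The genes called over the whole table moved more. DESeq2 called 332 in place of 2 for tdT in SCA-1neg cells, 1124 in place of 470 in SCA-1+ cells, 772 in place of 79 for the difference, 3143 in place of 1715 between the populations within tdT+ and 2051 in place of 963 within tdTneg cells. With at least 1 count in any library these were 166 and 885 for the first 2 and 1.38% of genes, against 0.389%, for the difference. With at least 10 counts in every library they were 20, 557 and 263. With only the groups compared edgeR called 0 for tdT in SCA-1neg, 885 in SCA-1+ cells and 1452 between the populations within tdTneg cells, and RLE size factors gave 5 and the replicate block 4 for tdT in SCA-1neg cells. The causes of these changes were not tested. With 2 or 3 libraries a group, the half-width of the 95% interval was 0.355 to 0.607 for tdT in SCA-1neg and 0.395 to 0.675 in SCA-1+ cells over the 10 genes. An estimate under a gene's own half-width leaves 0 within its interval, which is not adjusted for the number of genes.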

Other observations

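Age and replicate number coincide in these libraries, and 29 weeks is 1 library in each group. It held the highest level of its group for 7 of the 10 genes in tdT+ SCA-1+ cells, for the same 7 in tdTneg SCA-1neg cells (*H2-K1*, *Tap1*, *Tap2*, *Tapbp*, *Psmb8*, *Psmb9* and *Nlrc5*), for 9 of the 10 in tdTneg SCA-1+ cells and for 4 in tdT+ SCA-1neg cells. *Tap2*, *Tapbp*, *Psmb8* and *Psmb9* were highest at 29 weeks in all 4 groups. With 1 library of that age per group, age and library cannot be told apart, and this was not tested. Replicate 1 also had the most counts of its group in all 4 groups. These were 24764941 (tdT+ SCA-1neg), 46542177 (tdTneg SCA-1neg), 36593970 (tdT+ SCA-1+) and 30078680 (tdTneg SCA-1+). How many of all genes were highest in it was not counted, so the numbers above have no background.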
